A study of Homo sapiens with 4 samples.

Results

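Footprint counts of 10 genes of the contractile and structural cytoskeleton of fibroblasts are described here: the actins ACTB, ACTG1 and ACTA2, the actin-binding proteins TAGLN and CNN1, the tropomyosins TPM1 and TPM2, the myosin subunits MYL9 and MYH9, and the intermediate filament protein VIM. They were chosen by name, as a list of Ensembl numbers, with earlier results of these data known. All 10 were found among the 57820 features of the count tables, and all 10 passed the filter on low counts. Ribosome profiling sequences the mRNA fragments that ribosomes protect from nuclease, so a footprint count depends on the amount of an mRNA and on its occupancy by ribosomes, which cannot be told apart here because no RNA-seq libraries were used. In bulk lysates, fewer cells expressing a gene and less RNA per cell cannot be told apart either.

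The cells were BJ-Ras-ER cells, human BJ fibroblasts that carry hTERT and an oncogenic H-Ras switched on by 4-OHT. All 4 conditions share this background. Proliferating cells and cells in oncogene-induced senescence (OIS, 100 nM 4-OHT for 12 days) were each given DMSO or 10 µM GC7 for 18 h, with 1 library per condition. GC7 inhibits deoxyhypusine synthase and thereby the hypusination of the translation factor eIF5A. The OIS cells are cells of a single engineered line, in which senescence, active Ras and exposure to 4-OHT cannot be told apart. For 2 libraries, those titled proliferating GC7 and OIS DMSO, the sample record's title and treatment entry name different treatments. The titles were followed. If the treatment entries held instead, both proliferating libraries would be DMSO and both OIS libraries GC7, and state and treatment could not be told apart.

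Total counts ran from 3039026 in OIS DMSO to 6553835 in proliferating GC7 cells. Mitochondrially encoded features took 2.89% and 12.2% of the counts in the proliferating and OIS libraries titled DMSO, against 0.0281% and 0.141% in those titled GC7. They were left out of the scaling. Of 5 fibroblast genes fixed as markers (COL1A1, COL1A2, FN1, THY1 and PDGFRB), all had at least 1315 counts in every library. By the additive model described below, 3 of these 5 fell in OIS cells, COL1A1 by 2.58 (log2, adjusted p = 5.3e-05, edgeR's quasi-likelihood test), FN1 by 0.93 (adjusted p = 0.025) and COL1A2 by 0.90 (adjusted p = 0.038). That model called 14.5% of all tested features lower. Of the proliferation genes, LMNB1 fell by 1.60 (adjusted p = 9e-05) and TOP2A by 1.27 (adjusted p = 0.00058) on the same scale, while MKI67 was at -0.43 (adjusted p = 0.11). The muscle genes MYOD1, DES and MYH11 had at most 7 counts in any library, and the epithelial genes EPCAM and CDH1 at most 3. KRT18 fell from 1019 and 782 counts in proliferating cells to 101 and 207 in OIS cells, and the leukocyte gene PTPRC had 19 and 23 against 0 and 0. KRT8, also epithelial, had 24 and 81 counts in proliferating cells against 8 and 15 in OIS cells. The part of these differences in the results below was not tested. Of 4 genes fixed as markers that rise in senescence, CDKN1A, IL1B and CXCL8 were called higher in OIS cells in both treatments. The highest log2 ratio was 4.13 for IL1B in DMSO. The other marker, IL6, had 0 and 7 counts in proliferating cells with DMSO and GC7, and 4 and 10 in OIS cells. It had too few counts to be tested. Of all tested features, 14.1% were called higher in OIS cells in DMSO and 12% with GC7.

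Actin exists in fibroblasts as filaments of β- and γ-actin (ACTB, ACTG1). Smooth muscle actin (ACTA2) is added in contractile myofibroblasts. Filaments are coated by tropomyosins and pulled by nonmuscle myosin II, a complex of heavy chains such as MYH9 and light chains such as MYL9. Many of these genes are transcribed by serum response factor (SRF) with its MRTF cofactors, which are held in the cytoplasm by unpolymerised actin, and SRF binds a DNA element called the CArG box. Vimentin (VIM) forms a separate filament network, typical of mesenchymal cells.

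Because the CArG box ties several of these genes to one pathway, promoter sequences are shown for the members that held the box or a window close to it. RefSeq promoters (GRCh38.p14, 250 bases before to 50 after the start) were matched for 7 of the 10 genes, with 9 entries in all. ACTB, TAGLN and MYL9, all called lower in OIS cells below, had no entry and were not searched. The box is read alike on both strands. An exact CArG box was found for 1 gene, ACTG1, starting 94 bases before the start, and 1.29% of the 35116 promoters of the table held one. Windows with at most 1 mismatch to the box were found for 3 of the 7 genes (ACTG1, ACTA2 and VIM), for ACTA2 in its second entry alone. Of all promoters, counted by entry and not by gene, 18.9% held one. No such window was found for CNN1 and TPM1, called lower in OIS cells below, or for TPM2 and MYH9. Their sequences are not shown. TATAAA, searched on both strands, was found in none of the 9 entries and in 11.5% of all promoters. In the lines below, capitals mark the CArG box or a window with 1 mismatch to it, 5′ to 3′ on the strand of the gene.
ACTG1, lower in OIS cells, chr17:81512750-81513049, minus strand: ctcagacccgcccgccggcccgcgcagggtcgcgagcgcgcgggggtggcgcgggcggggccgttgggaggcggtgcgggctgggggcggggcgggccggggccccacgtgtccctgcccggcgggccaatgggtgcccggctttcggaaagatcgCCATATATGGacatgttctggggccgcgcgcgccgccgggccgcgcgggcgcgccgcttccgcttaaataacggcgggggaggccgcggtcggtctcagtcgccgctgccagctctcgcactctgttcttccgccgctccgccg
ACTA2, higher in OIS cells, the second of 2 entries, chr10:88952724-88953023, minus strand: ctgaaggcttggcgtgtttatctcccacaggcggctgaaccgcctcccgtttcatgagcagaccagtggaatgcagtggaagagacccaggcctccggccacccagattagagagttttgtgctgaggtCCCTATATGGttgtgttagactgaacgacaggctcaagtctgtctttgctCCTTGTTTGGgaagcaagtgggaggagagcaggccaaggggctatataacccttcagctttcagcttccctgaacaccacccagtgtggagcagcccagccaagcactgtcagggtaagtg
VIM, higher in OIS cells, chr10:17227991-17228290, plus strand: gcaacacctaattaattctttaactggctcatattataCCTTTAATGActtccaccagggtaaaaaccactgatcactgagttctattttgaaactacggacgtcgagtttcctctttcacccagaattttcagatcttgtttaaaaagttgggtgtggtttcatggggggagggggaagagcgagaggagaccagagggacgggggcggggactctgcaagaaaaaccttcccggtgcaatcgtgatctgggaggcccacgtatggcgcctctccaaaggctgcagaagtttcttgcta
The ACTG1 window is the exact match, and those of ACTA2 and VIM each differ from the box at 1 base. The windows are matches of letters, and binding of SRF was not measured.

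Between the states, ACTB, ACTG1, TAGLN, CNN1, TPM1 and MYL9 fell in OIS cells, VIM and ACTA2 rose, and TPM2 and MYH9 did not pass the test. These calls come from an additive model of state and treatment over the 4 libraries, with edgeR's quasi-likelihood test and an adjusted p under 0.05. By this model 6 of the 10 genes were lower in OIS cells, where 14.5% of all 11128 tested features were, and 2 of 10 were higher, where 18% of all features were. The median log2 fold change of the 10 genes was -0.76, beside -0.03 over all tested features. CNN1 passed the count filter only through the proliferating libraries. Without it 5 of 9 genes were lower and 2 higher, with a median of -0.68. For GC7 none of the 10 was called, where 0.144% of all features were called higher and 0.243% lower. The model has 2 libraries on each side and 1 residual degree of freedom, into which a GC7 response that differs by state also falls. Levels are given as CPM, footprint counts per 1000000 after scaling by TMM over the nuclear features. Where both OIS libraries lie on 1 side of both proliferating libraries, this is a description and not a test. The share of all tested features that separate in this way was not counted.

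**Figure D1:**
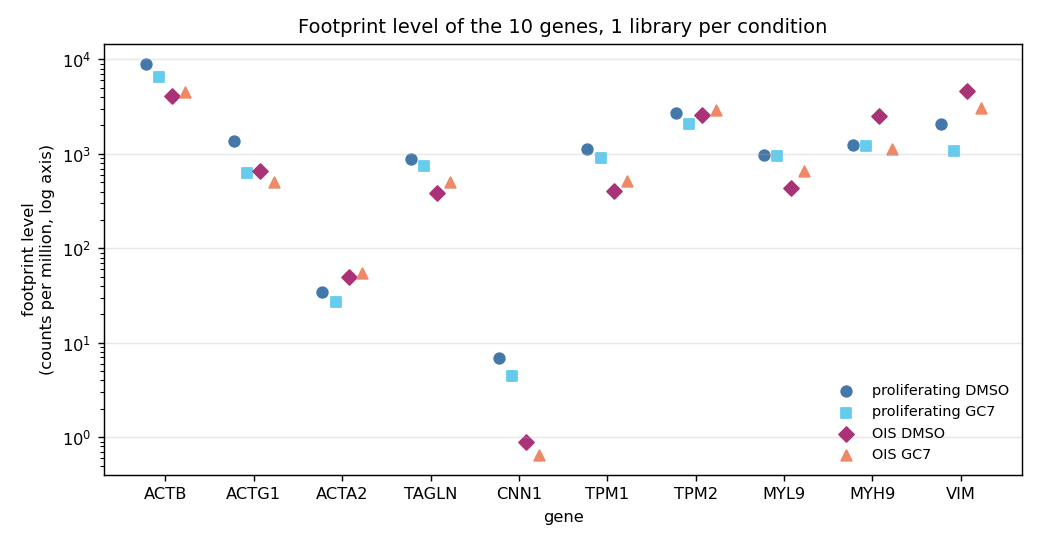
Footprint level of each of the 10 genes in the 4 libraries, in CPM, on a log axis, with 1 point per library and no error bar. For ACTB, TAGLN, CNN1, TPM1 and MYL9 both OIS points lie below both proliferating points, and for ACTA2 and VIM they lie above them. The share of all tested features that separate in this way was not counted.

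ACTB (ENSG00000075624, hg19 chr7:5566782-5603415, minus strand) encodes β-actin, the main actin of nonmuscle cells. It had 9042 CPM with DMSO and 6568 with GC7 in proliferating cells, and 4128 with DMSO and 4479 with GC7 in OIS cells. Both OIS libraries lay below both proliferating libraries. In the additive model ACTB fell by 0.84 on the log2 scale in OIS cells (SE 0.28, adjusted p = 0.037, edgeR's quasi-likelihood test). ACTG1 (ENSG00000184009, chr17:79476997-79490873, minus strand) encodes γ-actin, almost the same protein. Its levels were 1364, 634, 660 and 509 CPM in that order. Proliferating DMSO stood apart as the highest, and the proliferating GC7 library lay between the 2 OIS libraries. Its state effect of -0.68 (SE 0.24, adjusted p = 0.047) was the closest to the threshold of the 8 that passed, and it did not pass in a model without treatment (adjusted p = 0.14) or by the DESeq2 Wald test (0.054). The coding sequences of the actins are so alike that short footprints can match several of them and their pseudogene copies. With the default counting that the file headers show, reads that match several places are not counted, so levels of the actins are uncertain.

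ACTA2 (ENSG00000107796, chr10:90694831-90751147, minus strand) encodes smooth muscle α-actin, the usual marker of myofibroblasts. It was scarce, with 159, 200, 112 and 253 counts, which scaled to 34.5, 27.3, 50 and 54.6 CPM. Both OIS libraries lay above both proliferating libraries, opposite to ACTB. The additive model gave a log2 fold change of 0.78 (SE 0.22, adjusted p = 0.016), which did not pass with scaling by total count (0.48, adjusted p = 0.13) or by the DESeq2 Wald test (adjusted p = 0.12). Of its exonic bases 31.3% overlap genes on the opposite strand, where reads that overlap both genes are not counted by default.

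TAGLN (ENSG00000149591, chr11:117070037-117075498, plus strand) encodes transgelin, an actin-binding protein of smooth muscle and fibroblasts. Its levels were 876 and 741 CPM in proliferating cells with DMSO and GC7, and 383 and 499 in OIS cells. In the additive model TAGLN fell by 0.88 on the log2 scale (SE 0.23, adjusted p = 0.011). CNN1 (ENSG00000130176, chr19:11649532-11661138, plus strand) encodes calponin, which binds actin and restrains myosin in smooth muscle. It was the lowest member, with 32 and 33 counts in proliferating and 2 and 3 in OIS cells. The ratio of OIS to proliferating cells in DMSO was -2.69 on the log2 scale with a 95% counting interval of -6.07 to -0.99, and with GC7 it was -2.46 (-5.15 to -1.13). The additive model called it lower (adjusted p = 0.010), while the DESeq2 Wald test did not (0.058). CNN1 passed the minimum of 40 summed counts only through the proliferating libraries, where it is high. Its lower call is therefore no independent support for a fall in OIS cells.

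The tropomyosins parted between the states. TPM1 (ENSG00000140416, chr15:63334831-63364114, plus strand) had 1127 and 911 CPM in proliferating cells with DMSO and GC7, and 407 and 517 in OIS cells. Both OIS libraries were lower, and TPM1 fell by 1.14 on the log2 scale (SE 0.24, adjusted p = 0.0029). TPM2 (ENSG00000198467, chr9:35681989-35691017, minus strand) had 2717, 2090, 2611 and 2887 CPM in that order. The states overlapped, and the state effect was 0.20 (SE 0.25, adjusted p = 0.58), or -0.10 with scaling by total count. Within a library, where no scaling enters, there were 2.41 and 2.29 counts of TPM2 for each count of TPM1 in proliferating cells with DMSO and GC7, but 6.42 and 5.58 in OIS cells. The ratio was thus 2.66-fold higher in OIS cells in DMSO and 2.43-fold higher with GC7. Tropomyosin paralogs share stretches of sequence, so some reads may not have been assigned.

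The myosin subunits parted as well. MYL9 (ENSG00000101335, chr20:35169887-35178228, plus strand) encodes a regulatory light chain whose phosphorylation switches myosin II on. It had 985 and 941 CPM in proliferating cells with DMSO and GC7, and 431 and 656 in OIS cells. In the additive model MYL9 fell by 0.85 (log2, SE 0.24, adjusted p = 0.015). Of its exonic bases 57.7% overlap a gene on the opposite strand. MYH9 (ENSG00000100345, chr22:36677327-36784063, minus strand) encodes the heavy chain of nonmuscle myosin IIA. Its level was 1229, 1226 and 1123 in proliferating DMSO, proliferating GC7 and OIS GC7 cells, but 2549 in OIS DMSO cells. That 1 library stood apart, and the state effect of 0.46 did not pass (SE 0.29, adjusted p = 0.25). There were 5.92 counts of MYH9 per count of MYL9 in OIS DMSO cells, against 1.25, 1.30 and 1.71 in proliferating DMSO, proliferating GC7 and OIS GC7 cells.

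VIM (ENSG00000026025, chr10:17270258-17279592, plus strand) moved against ACTB and ACTG1. It had 2068 and 1069 CPM in proliferating cells with DMSO and GC7, and 4594 and 3080 in OIS cells. Both OIS libraries lay above both proliferating ones, and VIM rose by 1.34 on the log2 scale (SE 0.25, adjusted p = 0.0016), the smallest adjusted p of the 10. Within a library there were 0.229 and 0.163 counts of VIM per count of ACTB in proliferating cells with DMSO and GC7, and 1.11 and 0.688 in OIS cells. The ratio was 4.87-fold higher in OIS cells in DMSO and 4.23-fold higher with GC7. Genes on the opposite strand overlap 25.4% of the exonic bases of VIM.

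**Figure D2:**
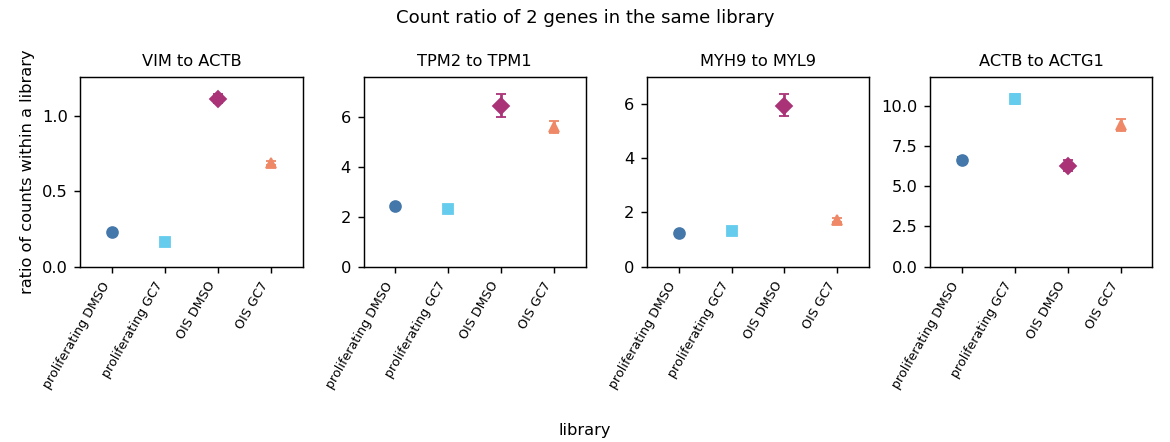
Ratio of the counts of 2 genes within each library, for 4 pairs of genes, with 95% exact counting intervals and vertical axes that start at 0. The ratios of VIM to ACTB and of TPM2 to TPM1 are higher in both OIS libraries, that of MYH9 to MYL9 stands apart at 5.92 in OIS DMSO, and that of ACTB to ACTG1 is higher in both GC7 libraries.

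In pairs of libraries, ACTB, ACTG1, TAGLN, TPM1 and MYL9 were over 2-fold lower in OIS cells in DMSO and under 2-fold lower with GC7, except that TPM1 was over 2-fold lower with GC7 too when scaled by total count. In each pair a gene was called when the ratio was at least 2-fold and its 95% counting interval excluded equal levels. With 1 library per condition there is no p-value for a pair. In DMSO, 6 of 10 genes were lower in OIS cells (ACTB, ACTG1, TAGLN, MYL9, CNN1 and TPM1) and 2 were higher (VIM and MYH9), where 12.6% of all tested features were called lower and 14.1% higher. The median log2 ratio of the 10 was -1.09, beside -0.02 over all features. Without CNN1 it was -1.05, with 5 of 9 genes lower. Log2 ratios of the 5 lower genes other than CNN1 ran from -1.47 for TPM1 to -1.05 for ACTG1. VIM was at 1.15 (1.11 to 1.19) and MYH9 at 1.05 (1.0 to 1.11), and neither was called with scaling by total count, nor MYH9 by upper quartile. With GC7 only CNN1 was called lower and VIM higher (1.53, interval 1.49 to 1.57), where 11.5% of all features were lower and 12% higher. With scaling by total count TPM1 was called lower too (-1.04). The median of the 10 was -0.42, beside -0.01. Without CNN1 it was -0.32, and none was called lower. ACTB stood at -0.55, ACTG1 at -0.32, TAGLN at -0.57, MYL9 at -0.52 and TPM1 at -0.82, all with intervals below 0, and ACTA2 at 0.99 (0.72 to 1.27), just under 2-fold.

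**Figure D3:**
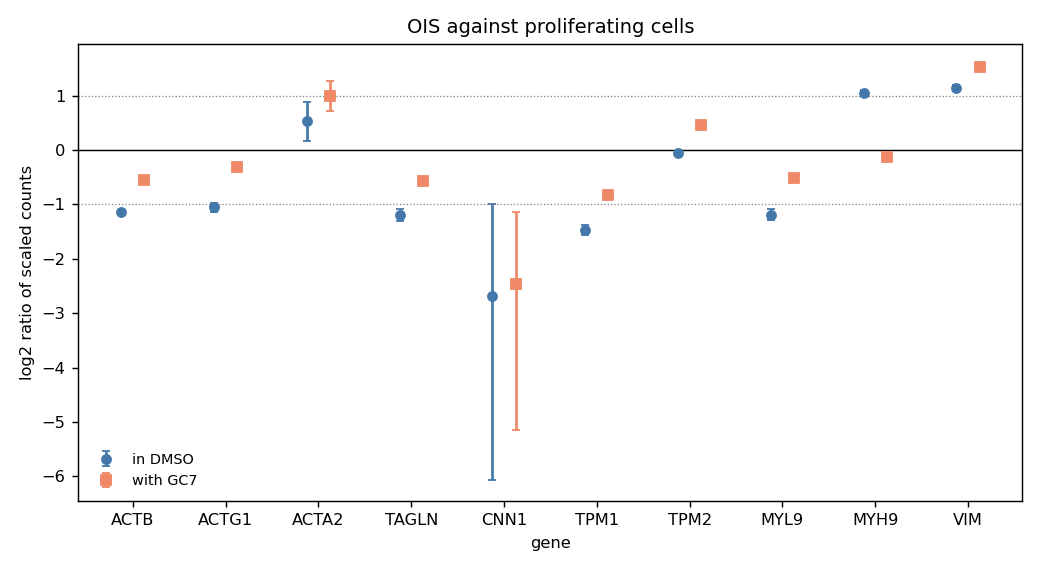
Log2 ratio of OIS to proliferating cells for each gene in DMSO (circles) and with GC7 (squares), with 95% exact counting intervals and dotted lines at 2-fold. ACTB, ACTG1, TAGLN, TPM1 and MYL9 lie below the lower line in DMSO and between it and 0 with GC7, while VIM lies above the upper line in both.

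Fewer of the genes were called for GC7. In proliferating cells, none of the 10 genes was higher with GC7 and 1 was called lower, where 3.42% and 2.06% of all features were. That gene was ACTG1, whose log2 ratio was -1.11 (-1.16 to -1.05). VIM followed at -0.95 (-1.0 to -0.91), just short of 2-fold. All other members except MYH9 had ratios between -0.60 and -0.07, and MYH9 was at -0.00 (-0.05 to 0.04). The median was -0.36, beside 0.02 over all features. In OIS cells, 1 of 10 was called lower and none higher, where 2.79% and 3.57% of all features were. This was MYH9, at -1.18 (-1.24 to -1.13), or -1.0 and just under the limit with scaling by total count. VIM was at -0.58 (-0.61 to -0.54) and ACTG1 at -0.38 (-0.47 to -0.28). MYL9 at 0.61 (0.50 to 0.71), TAGLN at 0.38 (0.27 to 0.50), TPM1 at 0.35 (0.24 to 0.46), TPM2 at 0.14 (0.10 to 0.19) and ACTB at 0.12 (0.08 to 0.15) lay above 0. The median was 0.12, beside 0.01 over all features.

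**Figure D4:**
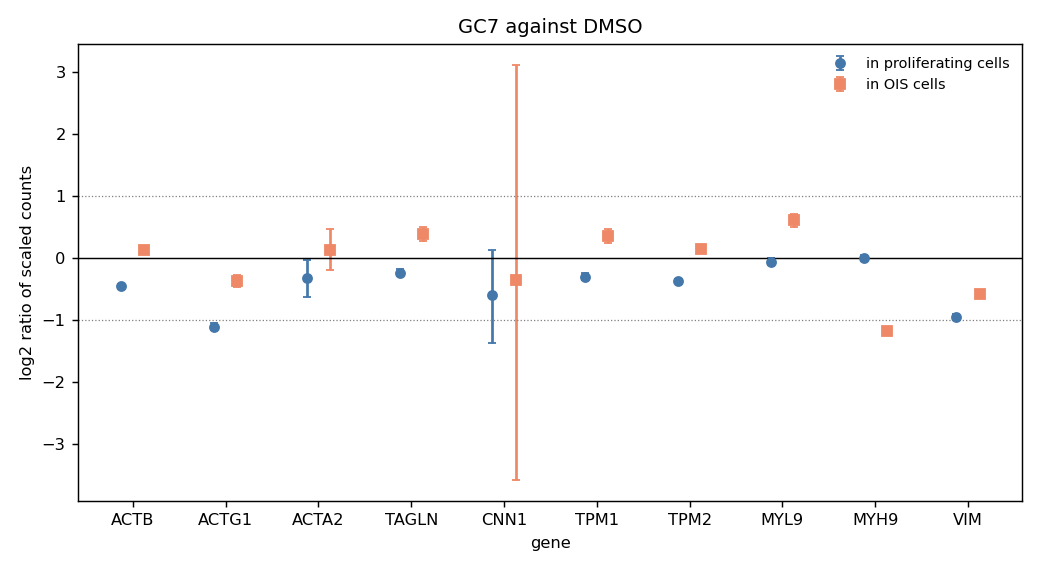
Log2 ratio of GC7 to DMSO for each gene in proliferating (circles) and OIS cells (squares), with 95% exact counting intervals and dotted lines at 2-fold. ACTG1 and VIM lie below 0 in both states, MYH9 lies at 0 in proliferating and at -1.18 in OIS cells, and the intervals of CNN1 reach across 0 in both.

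ACTG1 and VIM had counting intervals below 0 for GC7 in both states. In the additive model their treatment effects were -0.74 (SE 0.24) and -0.76 (SE 0.25), with adjusted p of 0.34 and 0.35 by edgeR's quasi-likelihood test. They were the only 2 of the 10 with an unadjusted p under 0.05 by that test, while the DESeq2 Wald test gave 3 and a model without state gave 0. The count of ACTB per count of ACTG1 was higher with GC7 in both states, at 6.63 in DMSO against 10.4 with GC7 in proliferating and 6.25 against 8.81 in OIS cells. On the log2 scale this change was 0.64 (0.59 to 0.70) and 0.49 (0.39 to 0.59).

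The response to GC7 in OIS minus that in proliferating cells was above 0 for 9 of the 10 genes and below 0 for MYH9. It was above 0 for 49.2% of all tested features. Its median was 0.55 on the log2 scale, beside -0.01 over all features. MYH9 was at -1.18 (-1.25 to -1.11) and was the only member called at 2-fold, where 4.78% of all features were lower and 4.2% higher. ACTG1 was at 0.73 (0.62 to 0.84), MYL9 at 0.67 (0.56 to 0.79), TPM1 at 0.65 (0.53 to 0.78), TAGLN at 0.62 (0.49 to 0.75), ACTB at 0.58 (0.54 to 0.62) and TPM2 at 0.52 (0.47 to 0.58). ACTA2 at 0.46 (0.02 to 0.90) and VIM at 0.38 (0.32 to 0.43) were closer to 0, and the interval of CNN1 reached from -2.21 to 2.68. This is the same quantity as the state difference with GC7 minus that in DMSO. The pairs share libraries, so the 4 comparisons are not independent, and a shift of 1 library moves 2 of them.

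Per exonic kilobase, the order of the genes was stable at its ends. ACTB was first (1268 to 2777 CPM per kb, rank 9 of all tested features in both proliferating libraries, and 27 and 19 in OIS cells with DMSO and GC7), TPM1 at place 8, ACTA2 at place 9 and CNN1 last in all 4 libraries. MYL9 was at place 2 in both proliferating libraries and at place 4 in both OIS libraries. VIM was at places 5 and 4 in proliferating cells with DMSO and GC7, and at places 2 and 3 in OIS cells. Neighbours in this order differed beyond counting error except MYH9 and TPM1 in proliferating DMSO, VIM and ACTG1 in proliferating GC7, and TAGLN and MYH9 in OIS GC7 cells. Footprints fall mainly on coding sequence, so this scale understates genes with long untranslated ends.

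Related genes were taken from 5 lists of 35 genes, 30 of which were tested. These lists too were chosen with earlier results of these data known. By the additive model, 8 of the 30 were lower in OIS cells and 1 higher, beside the 14.5% and 18% of all features. Of 11 tested genes of other actin and myosin filaments, 6 fell and none rose, with a median log2 fold change of -0.72. The 4 largest effects were those of the tropomyosin TPM4 (-1.22, adjusted p = 0.00085), the light chain MYL12B (-1.19, 0.00078), TAGLN2 (-1.10, 0.0016) and calponin CNN3 (-1.02, 0.0021), by edgeR's quasi-likelihood test. These are nonmuscle relatives of TPM1, MYL9, TAGLN and CNN1. None of the 11 lay above 0 in the additive model. Between pairs of libraries, 1 of the 11 lay above 0 in DMSO and 1 with GC7, beside 49.3% of all tested features in each. The muscle genes ACTA1, ACTC1, ACTG2 and MYH11 had too few counts to be tested. In the pairs of libraries, TPM4 (-1.48), TAGLN2 (-1.36), MYL12B (-1.25) and CNN3 (-1.25) were called lower in OIS cells in DMSO, and MYL12B (-1.13) with GC7. Of all tested features, 12.6% were called lower in DMSO and 11.5% with GC7.

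Of 6 genes that crosslink actin or anchor it at adhesions (ACTN1, ACTN4, FLNA, VCL, ZYX and TLN1), none passed the test for state, and their median was 0.04, in a range from -0.26 for ZYX to 0.62 for VCL. Of 6 regulators, 1 fell, the kinase ROCK2, which promotes phosphorylation of myosin light chains (-0.80, SE 0.19, adjusted p = 0.0066). Of all tested features 14.5% were called lower, and 1 of 6 is near that share. SRF was at -0.38 (SE 0.23, adjusted p = 0.23) and its cofactor MRTFA at -0.45 (SE 0.20, adjusted p = 0.11). The cofactor MRTFB was at -0.11, RHOA at -0.48 and ROCK1 at 0.09, and none of them passed. The targets shared by MRTF and YAP, CCN1 and CCN2, were at -0.21 and -0.16 and neither passed. Among 5 tested intermediate filament and tubulin genes, nestin (NES), an intermediate filament protein that assembles with vimentin, rose by 1.44 (SE 0.20, adjusted p = 0.0002), and the tubulin TUBA1B fell by 0.65 (SE 0.21, adjusted p = 0.033). The shares of all features were 18% higher and 14.5% lower. In the pairs NES was called higher in DMSO (1.51) and with GC7 (1.36), and the tubulin TUBB6 with GC7 (1.12). Of all features, 14.1% were called higher in DMSO and 12% with GC7.

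**Figure D5:**
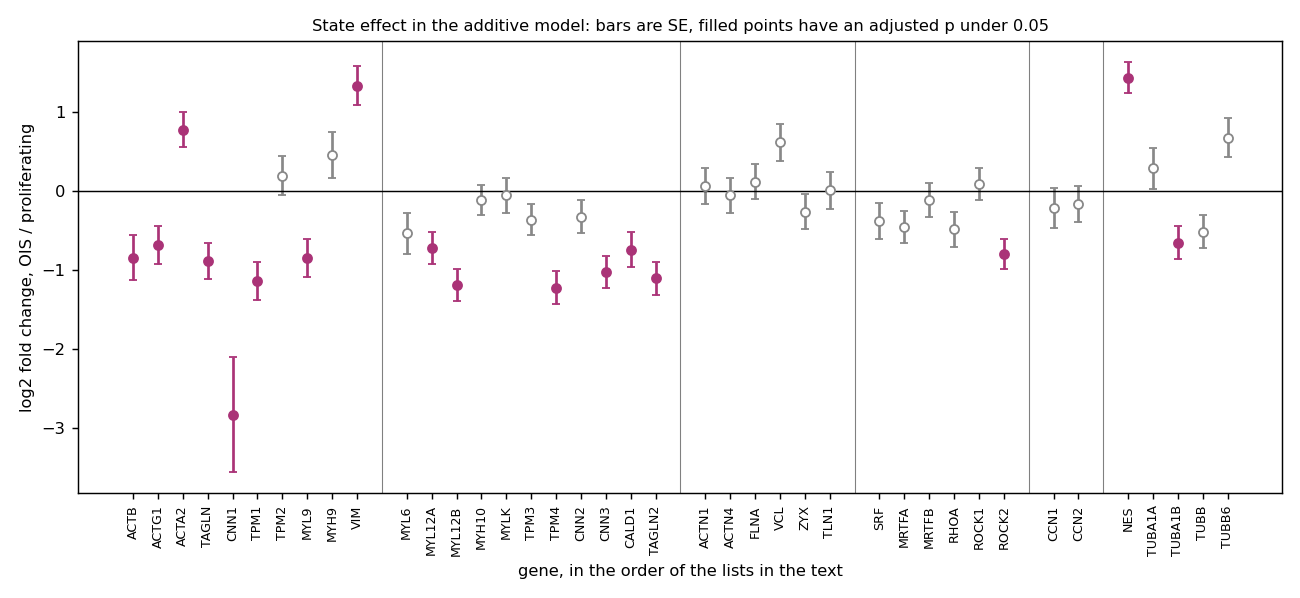
Log2 fold change of OIS against proliferating cells in the additive model, with SE, for the 10 genes and the 30 tested genes of the related lists, separated by vertical lines, with points filled where the adjusted p was under 0.05. Of the 11 other actin and myosin filament genes 6 are filled below 0, none of the crosslinking genes is filled, and VIM and NES are the highest filled points.

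With GC7, 2 of the 30 related genes were called lower in OIS cells (MYH10 and NES), 2 in proliferating cells (NES and TUBA1A) and none higher in either. Of all tested features, 2.79% were called lower and 3.57% higher in OIS cells. In proliferating cells 2.06% were lower and 3.42% higher. MYH10, the heavy chain of nonmuscle myosin IIB, had a log2 ratio of -1.10 in OIS and -0.89 in proliferating cells, where MYH9 was at -1.18 and -0.00. NES was at -1.15 in OIS and -1.0 in proliferating cells. It was the only related gene called for treatment in the additive model (-1.08, SE 0.20, adjusted p = 0.045, edgeR's quasi-likelihood test). That model called 0.243% of all features lower and 0.144% higher. TUBA1A was at -1.12 in proliferating and 0.13 in OIS cells, and its difference of 1.24 was the only one among the 30 called at 2-fold. Of all features, 4.2% were called higher and 4.78% lower for this difference. It was above 0 for 20 of the 30 related genes.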

How the data were processed

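Ribosome footprints were measured in 4 libraries, 1 per condition. The deposited values are whole-number counts per gene without normalization: per the file headers and the submitters' processing notes, the authors aligned reads to hg19 with STAR (version 2.5.3a) and counted them with featureCounts (version 1.5.1) on the GENCODE version 19 annotation. The header command sets no option for strand, multi-mapping or overlapping features. The use of the molecular identifiers of the linkers was not given in the sources used here.

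The files pair no Ensembl number with a symbol. The member names come from the list that defined them, and those of related genes and markers were written with their numbers by hand. Each was checked against the RefSeq table, 50 of 65 on chromosome and strand and 15 on chromosome alone. The members and lists were chosen with earlier results of these data known. In the text, all members are named, and of related genes those called, or the 4 with the largest effects where more were called. Genes of 2 lists that were not called (SRF, MRTFA, MRTFB, RHOA, ROCK1, CCN1 and CCN2) and the ends of the range of the crosslinking genes were named after their values were seen.

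A minimum of 40 counts, summed over the libraries, left 11128 nuclear features. Counts were scaled by TMM in edgeR (version 4.0.16, R version 4.3.3), with mitochondrial features left out. Log2 ratios used a prior count of 1, in proportion to library size. Intervals of ratios were 95% exact conditional binomial (Clopper-Pearson), and those of differences between ratios used the normal approximation on the counts. Both cover only counting error, without a check against replicates. The additive model of state and treatment was tested by edgeR's quasi-likelihood test with Benjamini-Hochberg adjustment over all 11128 features. It moderates the spread of each feature with that of all features. No condition has a replicate, so this spread is not one between replicates. The scripts were tested on simulated data. Alternatives were DESeq2 size factors (version 1.42.0), total-count scaling over the tested nuclear features, upper quartile scaling, TMM without the 10 genes, count minimums of 400 and 1, a prior count of 5, a 1.5-fold limit, the DESeq2 Wald test and a model without the other factor.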

Additional observations from a re-analysis of the deposited data

Results flagged for a closer look

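For 6 genes the log2 ratio of GC7 to DMSO was below 0 in proliferating cells and above 0 in OIS cells. How many of all tested features change sign in this way was not counted. Of all tested features, 51.7% lay above 0 in proliferating cells and 50.9% in OIS cells. The response in OIS minus that in proliferating cells was 0.58 for ACTB, 0.46 for ACTA2, 0.62 for TAGLN, 0.67 for MYL9, 0.65 for TPM1 and 0.52 for TPM2. Each response rests on 1 library per condition, and the difference was not tested against a spread between replicates. The counting interval of ACTA2 in OIS cells included 0 (-0.20 to 0.46), and the ratio of MYL9 in proliferating cells was -0.07, or 0.01 with a count minimum of 1.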

How the results depend on the processing

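No paired analysis was possible because each condition has 1 library. For the same reason no library could be left out of the additive model with a test remaining. The order per coding length was not run, since no protein table was used here. With scaling by total count the median of all features moved to -0.40 between the states in DMSO, to -0.24 with GC7 and to 0.19 for GC7 in OIS cells. All features called higher and lower then numbered 958 and 2533 in place of 1571 and 1405 between the states in DMSO, and 936 and 1837 in place of 1330 and 1282 with GC7. For GC7 in OIS cells they numbered 653 and 190 in place of 397 and 310. The median of the 10 genes between the states was -1.48 in DMSO and -0.64 with GC7 by total count, -1.20 and -0.50 by upper quartile, and -0.50 with GC7 at a count minimum of 1. For GC7 in OIS cells, 0 genes in place of 1 were called by total count and 2 at a 1.5-fold limit. At that limit 2 were called for GC7 in proliferating cells, 4 between the states with GC7 and 5 for the difference of the responses. Of all 11128 features, GC7 then had 865 higher and 872 lower in OIS and 952 higher and 752 lower in proliferating cells, against 2350 and 2329 for state under GC7 and 989 and 1152 for the difference. With a minimum of 400 counts, which leaves out CNN1, 1 was called between the states with GC7. Of the 6326 features then tested, 653 were called higher and 599 lower. The DESeq2 Wald test called 5 genes for state in place of 8, losing ACTA2, ACTG1 and CNN1, and the cause was not tested. Calls over all 11128 features fell too, to 1339 higher and 789 lower in place of 2001 and 1609. By total count 3 were called between the states with GC7 (1 higher, 2 lower) in place of 2, TPM1 being added. No alternative changed a gene called in the additive model in direction. No gene was called for treatment under any alternative of the additive model. Counts limit CNN1 and ACTA2 most.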
